A study of Mus musculus with 4 samples.

Results

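The genes described here encode the TGF-beta and BMP signalling pathway, from its ligands to the genes its Smad proteins switch on. The 46 members were picked by gene name as the scanner files give it, and each is represented by the brightest of its probes, judged by the mean log2 processed signal over all arrays. They are 46 of 19979 genes named on the array, and the rule uses no difference between genotypes. Of the 46 members, 43 were tested and 3 were too dim. Levels below are on the log2 scale with the 75th percentile of the same array set to 0, and differences are KO minus WT on the log2 scale, where 1 unit is a 2-fold difference.

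Left ventricles were taken 7 days after the left anterior descending coronary artery had been permanently tied to infarct the heart, and their RNA was hybridised to Agilent arrays. The KO group had 2 arrays from mice lacking KDM5B, a histone demethylase, through a CRISPR/Cas9 deletion with a frameshift, not driven by a cell type's promoter, and the WT group had 2 arrays from wild-type mice with the same infarction. The labels give every sample as male, the study's methods give an age of 8 to 10 weeks at surgery, and no sample without an infarction was analysed here. The arrays carry the numbers 2 and 3 in each group and are called WT 2, WT 3, KO 2 and KO 3. Nothing in the labels says whether each array is 1 mouse, so the spread between arrays may be partly technical.

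TGF-beta ligands are secreted in a latent complex held in the matrix by latent TGF-beta binding proteins. Once released, a ligand brings type II and type I receptors together, and the type I receptor phosphorylates Smad2 and Smad3 for TGF-beta and activin, or Smad1, Smad5 and Smad9 for most BMPs. These join Smad4 and enter the nucleus, where Smad6, Smad7 and the Id genes are among the targets; Smad6, Smad7 and the Smurf ubiquitin ligases then dampen the signal. In the infarcted heart the pathway is best known for turning fibroblasts into the myofibroblasts that build the scar.

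Each level is the brightness of a spot of 60-base DNA strands, and the strands of 6 members that the results return to are printed here as read from the scanner files, 5′ to 3′, in lower case throughout since no base is singled out. They stand for the main TGF-beta ligand, an activin chain, the BMP ligand whose groups did not overlap, the antagonist that was the only member over 2-fold apart by mean, a BMP target and a Smad co-repressor. Positions are those of the files, on build mm9.
Tgfb1, chr7:26489877-26489936, + strand: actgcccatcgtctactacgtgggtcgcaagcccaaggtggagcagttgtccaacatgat
Inhba, chr13:16118634-16118693, + strand: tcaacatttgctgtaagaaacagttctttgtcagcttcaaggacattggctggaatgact
Bmp4, chr14:47003802-47003861, - strand: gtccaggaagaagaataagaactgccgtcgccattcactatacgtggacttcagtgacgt
Fst, chr13:115244692-115245364, - strand: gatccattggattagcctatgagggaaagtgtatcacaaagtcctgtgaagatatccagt
Id3, chr4:135700075-135700249, + strand: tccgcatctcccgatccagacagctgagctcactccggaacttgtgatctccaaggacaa
Tgif1, chr17:71194438-71194497, - strand: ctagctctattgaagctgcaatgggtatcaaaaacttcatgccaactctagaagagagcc
The Fst strand covers 673 genomic bases and the Id3 strand 175, so each joins sequence from separate stretches of the gene, while the other 4 match an unbroken run of 60 bases. Whether a strand lies in coding sequence or an untranslated region is not given, as no annotation of that build was at hand.

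The 4 arrays differed in ways that do not follow genotype. KO 2 stood apart: the atrial genes Sln, Myl7 and Myl4 read 5.95, 6.39 and 5.46 there and at most -2.46, 0.23 and -0.55 on any other array, and all 14 cardiomyocyte markers were highest on KO 2. Markers of macrophages (9 of 9), neutrophils (5 of 5), fibroblasts and myofibroblasts (11 of 12) and mesothelium (6 of 7) were lowest on KO 2. Ventricular Myl2, the regulatory myosin light chain that defines the labelled chamber, was bright on all arrays (5.74 to 8.87). Xist, the RNA of the inactive X chromosome, was well above background on WT 2 and KO 2 only, and 4 Y-linked genes on WT 3 and KO 3 only, although every sample is labelled male. Since each genotype holds 1 array of either kind, results are given for each number separately as well, without replicates. Kdm5b read -0.87 (WT 2), -1.81 (WT 3), -2.40 (KO 2) and -2.26 (KO 3), lower on both KO arrays than on both WT arrays; where its probe lies relative to the deletion was not determined.

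Over the whole pathway, no member passed the test of KO against WT. By limma with Benjamini-Hochberg adjustment over all 28304 tested probes, 0 of 43 tested members were called, meaning that they passed both an adjusted p of 0.05 and a 2-fold difference, against 0% of the 15005 tested genes. The lowest adjusted p was 0.9999, and 0 members had an unadjusted p under 0.05, against 1.41% of all tested genes. With 2 arrays against 2, an exact two-sided permutation test of a single gene cannot go below 0.333. By size alone, 1 member (Fst) was over 2-fold lower in KO, or 2.33% of members against a background of 2.33%, and 0 were over 2-fold higher, against 1.12%. Of the members, 12 had a higher and 31 a lower KO mean, with a median difference of -0.21, while the median over all tested genes was 0.04. That balance changed when KO 2 or WT 3 was left out. Without KO 2, 30 members were higher and 13 lower, and the median was 0.17. The sign changed for 24 members (55.8%), against 48.8% of all tested genes. Without WT 3, 20 members were higher and 23 lower, and the median was -0.025. Here the sign changed for 12 members (27.9%), against 19.5% of all tested genes. Leaving out WT 2 or KO 3 gave 11 higher and 32 lower in each case.

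**Figure D1:**
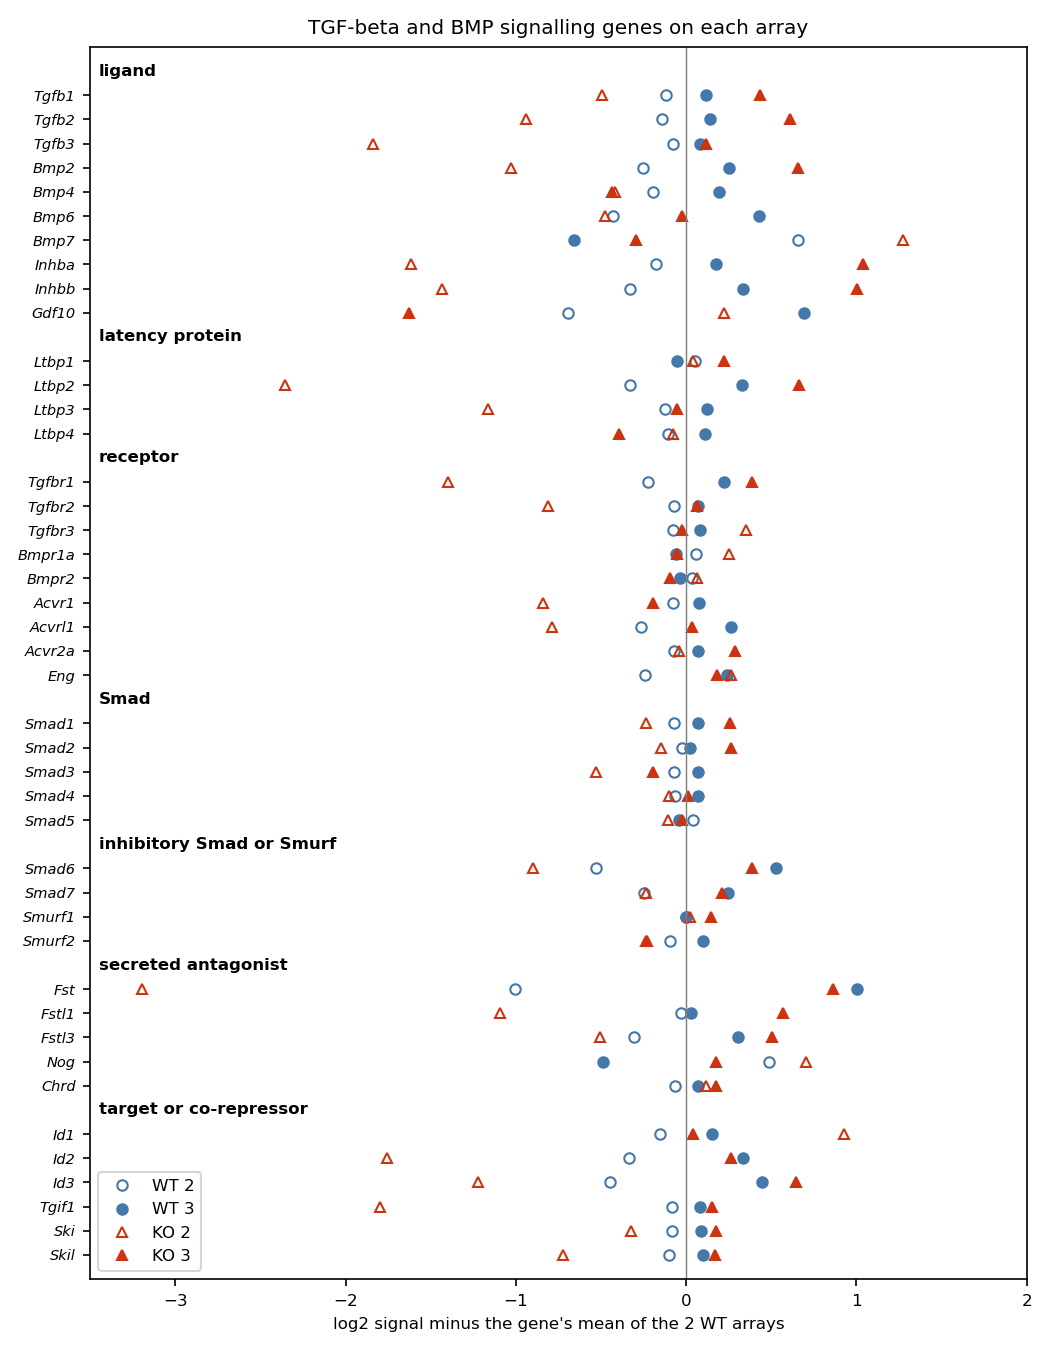
Log2 signal of each tested member on each array, minus the gene's mean of the WT arrays (x axis, log2 units; 0 is the WT mean), with genes listed by role. Circles are WT and triangles KO, open for number 2 and filled for number 3; KO 2 is the lowest of the 4 arrays for 28 of 43 members, and Fst has the widest spread of all.

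The KO arrays disagreed for many of the members. KO 2 was the lowest of the 4 arrays for 28 of 43 members (65.1%), against 39.9% of all tested genes, and KO 3 the highest for 20 (46.5%), against 33.2%. KO 2 and KO 3 differed by over 2-fold for 17 members (39.5%), against a background of 30.5%, and WT 2 and WT 3 for 4 members (Bmp7, Gdf10, Smad6 and Fst), or 9.30% against 6.44%. At number 2 the median difference over members was -0.22, and 10 of them (23.3%) were over 2-fold lower on KO 2 than on WT 2, against 9.38% of all genes; 1 member, Id1, was over 2-fold higher, against 6.95%. At number 3 the median was 0.04, with 1 member (Gdf10) over 2-fold lower, against 1.76%, and 0 over 2-fold higher, against 2.57%. The members that were over 2-fold lower at number 2 were Tgfb3, Inhba, Inhbb, Ltbp2, Ltbp3, Tgfbr1, Fst, Fstl1, Id2 and Tgif1, and at number 3 their differences lay between -0.18 and 0.86. In 18 members (41.9%) KO was lower at number 2 and higher at number 3, against 28.2% of all genes, and 0 members were over 2-fold apart in the same direction at both numbers, against 0.673%. Both arrays numbered 2 lay below both arrays numbered 3 for 26 members (60.5%), against 31.5% of all tested genes. They lay above them for 4 (Bmp7, Bmpr1a, Bmpr2 and Nog), or 9.30% against 31.6%. All tested genes also divided by array number more often than by genotype (13.3% with KO above WT and 8.88% with KO below). The members thus stood apart in the direction of this division. With 1 array of each genotype per number, these counts describe arrays and not genotypes.

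**Figure D2:**
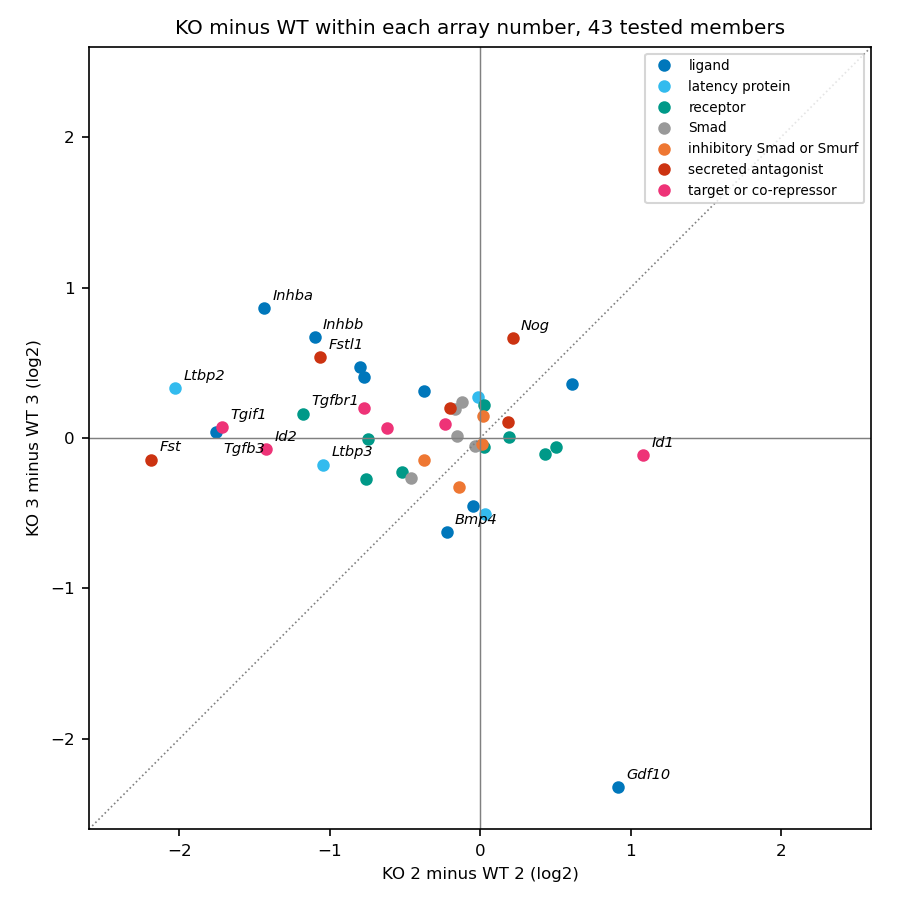
KO minus WT at number 2 (x axis, log2) against number 3 (y axis, log2) for the 43 tested members, coloured by role; the dotted line marks equal differences. Members spread widely along the x axis, from -2.19 for Fst to 1.08 for Id1, while all but Gdf10 lie between -0.63 and 0.86 on the y axis.

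The markers of several cell types moved with the members on KO 2. Relative to the mean of the WT arrays, the median member was at -0.48 on KO 2 and 0.17 on KO 3. The fibroblast and myofibroblast list was at -1.09 and 0.00, the macrophage list at -1.39 and 0.50, the neutrophil list at -2.71 and 0.25 and the mesothelial list at -3.16 and 1.09. The cardiomyocyte list ran the other way, at 1.64 on KO 2 and -1.39 on KO 3, with WT 2 and WT 3 between them at 0.67 and -0.67, and the endothelial list was at 0.49 and -0.26. The lymphocyte list was at -1.19 and 0.29, the smooth muscle and pericyte list at -0.29 and 0.19 and the ventricular list at 1.73 and -1.48. As a mean level over its 12 genes, the fibroblast list ran from 4.96 to 5.14 in WT and from 3.96 to 5.17 in KO, and all 12 were well above background on every array. Of the neutrophil and lymphocyte markers, Cxcr2 and Cd8a were not well above background on KO 2, nor was the atrial Sln on WT 2. In pieces of tissue, fewer cells of a type and less RNA per cell cannot be told apart. The part of cell makeup in the members' values was not tested.

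**Figure D3:**
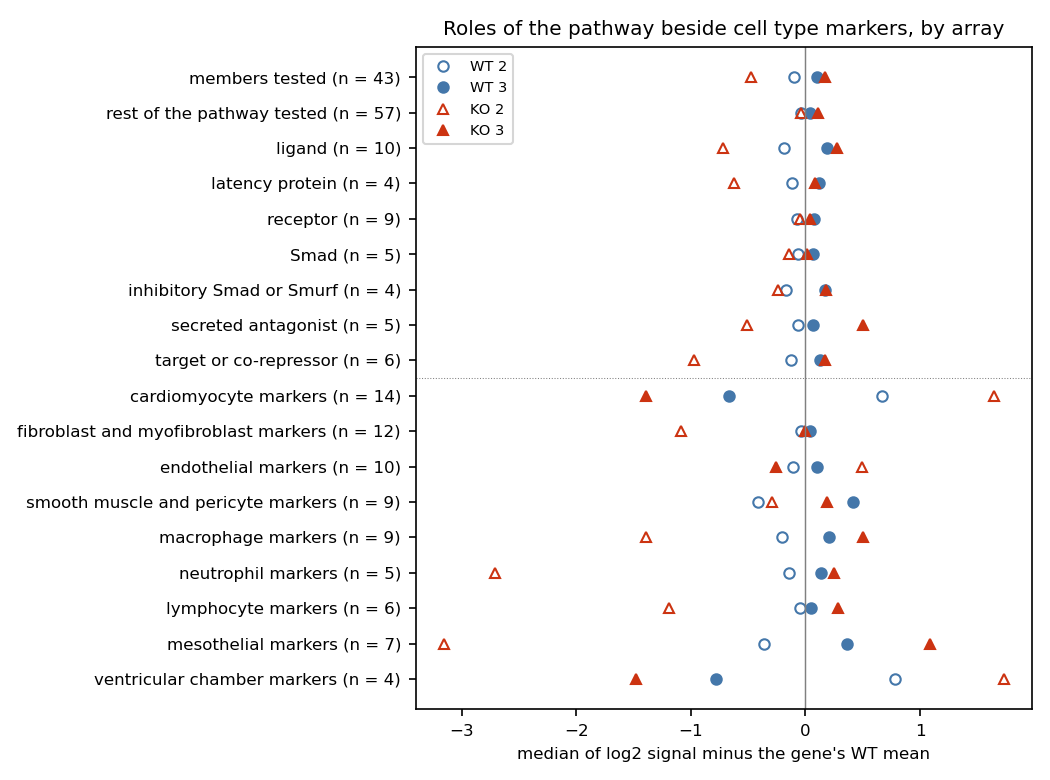
Median over the genes of each list of the log2 signal minus the gene's WT mean (x axis, log2 units), with 1 mark per array; the dotted line divides pathway lists (above) from cell type markers (below), and n is the number of genes. On KO 2 every role lies below 0, lowest for targets and co-repressors (-0.97), ligands (-0.72), latency proteins (-0.62) and secreted antagonists (-0.51). Inhibitory Smads and Smurfs (-0.24), Smads (-0.15) and receptors (-0.04) lie nearer 0. Fibroblast, macrophage, neutrophil, lymphocyte, mesothelial and smooth muscle markers also lie below 0, and cardiomyocyte, endothelial and ventricular markers above it.

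The 3 TGF-beta ligands were well above background on all arrays, and none passed the test. Tgfb1, the isoform most tied to scarring, read 0.36 (WT 2), 0.59 (WT 3), -0.02 (KO 2) and 0.91 (KO 3). The KO arrays thus lay on either side of both WT arrays, and the difference was -0.03 (SE = 0.40). Tgfb2 read 1.29 and 1.58 on the WT arrays and 0.49 and 2.04 on the KO arrays, a difference of -0.17 (SE = 0.61). Its KO arrays again flanked the WT arrays. Tgfb3 read 5.63 and 5.79 in WT, 3.87 on KO 2 and 5.83 on KO 3. KO 3 was level with the WT arrays, and the difference of -0.86 with a standard error of 0.74 came from KO 2. Without KO 2 the differences of Tgfb1, Tgfb2 and Tgfb3 were 0.43, 0.61 and 0.12, each with the opposite sign.

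Among the activin chains, Inhba, which forms activin A, read 1.36 (WT 2), 1.72 (WT 3), -0.08 (KO 2) and 2.58 (KO 3). KO 2 was the lowest array and KO 3 the highest, with -1.44 at number 2 and 0.86 at number 3, the largest positive difference of any member at number 3. Inhbb, the other activin chain, had the same order of arrays on its brighter probe (0.13, 0.80, -0.97 and 1.47) but not on its dimmer one, which read -2.84 (WT 2), -3.98 (WT 3), -2.62 (KO 2) and -3.42 (KO 3). Its probes therefore differed in direction, at -0.21 and 0.39.

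Of the BMP ligands, Bmp4, a morphogen of the developing heart, was the only one whose genotypes did not overlap. It read -0.26 (WT 2), 0.13 (WT 3), -0.48 (KO 2) and -0.49 (KO 3). The KO arrays were nearly equal and both were under the WT arrays, with a difference of -0.43 (SE = 0.25, limma adjusted p = 0.9999); it was -0.22 at number 2 and -0.63 at number 3. Bmp6, which controls hepcidin in the liver, was lower in KO by mean (-0.25), but KO 3 (0.40) lay above WT 2 (-0.01), so its groups overlapped. Bmp7 was the only tested ligand with a higher KO mean (0.49). It divided the arrays by number instead, at -2.38 and -1.77 on WT 2 and KO 2 and -3.70 and -3.34 on WT 3 and KO 3, and its dimmer probe did the same. Gdf10, a BMP-like ligand also called Bmp3b, read -3.92 (WT 2), -2.53 (WT 3), -3.00 (KO 2) and -4.85 (KO 3). The difference was 0.92 at number 2 and -2.32 at number 3, the reverse of the order in Tgfb1, Tgfb2, Tgfb3, Bmp2, Inhba and Inhbb, which were lower at number 2 and higher at number 3. Bmp2 was dim but above background everywhere, from -4.86 on KO 2 to -3.18 on KO 3. Bmp10, a ligand of the adult atrium, was not well above background on any array, KO 2 with its atrial transcripts included. Its level there was -7.59, below the dimmest probe that counted as well above background on that array (-5.41).

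The latency proteins divided by family member. Ltbp2, a matrix protein of elastic fibres that does not itself bind latent TGF-beta, read 6.21 (WT 2), 6.86 (WT 3), 4.18 (KO 2) and 7.19 (KO 3). KO 2 was over 2 units below every other array, giving -2.03 at number 2 and 0.33 at number 3. Ltbp3 read 4.70 and 4.94 in WT and 3.65 and 4.77 in KO, and its second probe gave nearly the same difference at number 2 (-1.04 and -1.05). On that second probe both KO arrays (-1.77 and -0.83) lay below both WT arrays (-0.72 and -0.73). Ltbp1 and Ltbp4 differed little, by 0.13 and -0.24, with standard errors of 0.22 and 0.25. The dimmer probe of Ltbp1 lay higher on both KO arrays (-3.08 and -3.14) than on both WT arrays (-3.41 and -3.43).

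The receptors showed no shared direction. Of 9, 4 had a higher and 5 a lower KO mean, with a median of -0.02. Tgfbr2, the receptor that binds TGF-beta first, read 4.18 (WT 2), 4.32 (WT 3), 3.43 (KO 2) and 4.31 (KO 3). KO 3 lay between the WT arrays, and the difference of -0.37 with a standard error of 0.38 lay with KO 2. Tgfbr1, the type I kinase, read 2.28, 2.73, 1.11 and 2.89 in the same order, with -1.18 at number 2 and 0.16 at number 3, and its dimmer probe did likewise (-0.98 and 0.25). Without KO 2 both receptors changed sign, to 0.06 for Tgfbr2 and 0.38 for Tgfbr1.

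Acvr1, the BMP type I receptor ALK2, was the only receptor whose groups did not overlap. It read 1.31 (WT 2), 1.47 (WT 3), 0.55 (KO 2) and 1.2 (KO 3). KO lay entirely below WT, KO 3 by little, and the difference was -0.52 (SE = 0.31, limma adjusted p = 0.9999). The endothelial receptor Acvrl1 (ALK1) gave -0.52 at number 2 and -0.23 at number 3, with KO 3 (-0.49) between WT 2 (-0.79) and WT 3 (-0.26). Eng, the co-receptor endoglin of endothelial cells, read 2.11 on WT 2 and between 2.53 and 2.62 on the other 3 arrays. Bmpr2, Bmpr1a, Acvr2a and the co-receptor Tgfbr3 differed by -0.02, 0.10, 0.12 and 0.16, all within their standard errors of 0.21 to 0.25.

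The 5 tested Smads differed little, with KO minus WT between -0.36 and 0.06, and all 5 were lowest on KO 2. Smad2 read 0.23 (WT 2), 0.28 (WT 3), 0.10 (KO 2) and 0.51 (KO 3), so its groups overlapped and the difference was 0.06 (SE = 0.25). Smad3, which carries the TGF-beta signal to collagen genes together with Smad2, read -0.73 (WT 2), -0.59 (WT 3), -1.19 (KO 2) and -0.86 (KO 3). Both KO arrays were below both WT arrays. The difference was -0.36 (SE = 0.24, limma adjusted p = 0.9999), at -0.46 within number 2 and -0.27 within number 3. The second Smad3 probe, which was much dimmer, gave -0.21 with overlapping groups, as KO 2 (-4.46) read above WT 3 (-4.48). The shared Smad4 and the BMP Smads Smad1 and Smad5 differed by -0.04, 0.01 and -0.07 on their brightest probes. Their other probes did not all follow: the second Smad4 probe was lower on both KO arrays (1.85 and 1.21) than on both WT arrays (2.11 and 1.97), and the dimmest Smad5 probe was higher on both (-3.41 and -3.11 against -3.61 and -3.62). Smad9 was not well above background on any array, by either of its probes.

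The inhibitory Smads and the Smurf ligases showed small differences in both directions. Smad7, which is induced by TGF-beta and blocks its receptor, read 0.57 (WT 2), 1.07 (WT 3), 0.59 (KO 2) and 1.03 (KO 3). It followed the array number and not the genotype, with a difference of -0.01 and a standard error of 0.32. Smad6, the inhibitor that BMPs induce, did the same, at 0.17 and -0.20 on WT 2 and KO 2 and 1.23 and 1.09 on WT 3 and KO 3. Smurf2 read 0.78 (WT 2), 0.98 (WT 3), 0.64 (KO 2) and 0.65 (KO 3). All 3 of its probes were lower on both KO arrays than on both WT arrays, with differences of -0.13, -0.23 and -0.47 and standard errors of 0.21 to 0.24. Smurf1 read -0.24 and -0.25 in WT and -0.22 and -0.10 in KO, so that the genotypes did not overlap and KO was higher, by 0.08 on average, and its second probe by 0.15. The Smurf1 differences were below their standard errors of 0.21 and 0.23.

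Smad6 was the only one of the 34 members with a promoter in the RefSeq table (build GRCm38.p6) whose window around the start of the gene held GTCTAGAC, the palindrome that Smad3 and Smad4 bind; the motif reads the same on both strands and contains none of the others searched. It was found in 0.213% of all 32851 promoters. The 140 bases around it are printed, 5′ to 3′ on the - strand, chr9:64022040-64022179, with the palindrome in capitals, from base -4 to base 4 around the start of the gene: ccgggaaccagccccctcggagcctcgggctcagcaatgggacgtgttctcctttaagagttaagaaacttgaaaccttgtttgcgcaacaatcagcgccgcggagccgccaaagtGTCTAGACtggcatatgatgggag. The GC-rich element GGCGCC was found for 12 of the 34 members and in 11.9% of all promoters. The cyclic AMP element TGACGTCA was found for 1 of the 34 members (Ltbp1) and in 1.79% of all promoters. Members were counted by gene, with a match in any promoter of the gene, and all promoters singly, so these shares are not in like units. Members without a promoter entry, Smad7 and Id1 among them, could not be searched for any of these motifs. A match describes letters and does not show that a factor binds there.

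Fst, the activin antagonist follistatin, was the member with the largest difference between means, and also the one with the largest spread. It read -0.57 (WT 2), 1.44 (WT 3), -2.75 (KO 2) and 1.30 (KO 3). Both arrays numbered 2 lay below both arrays numbered 3, and the groups overlapped. The difference was -1.17 (2.24-fold lower, SE = 1.67, limma adjusted p = 0.9999); the number 2 arrays gave -2.19, the number 3 arrays -0.14, and leaving KO 2 out gave 0.86. Under normexp background correction Fst was no longer over 2-fold apart. Fstl1, a secreted follistatin-like protein of stromal cells, read 6.70 and 6.76 in WT, 5.64 on KO 2 and 7.30 on KO 3. Its WT arrays were nearly equal and its KO arrays lay on either side of them. Chrd, the BMP antagonist chordin, read -2.59 and -2.45 in WT and -2.40 and -2.35 in KO. Both KO arrays were above both WT arrays, by 0.15 with a standard error of 0.21. Nog, the BMP antagonist noggin, was higher in KO at both numbers (0.22 and 0.66) with overlapping groups, and Fstl3 gave -0.20 and 0.20. Grem1, the BMP antagonist gremlin, was not well above background on any array.

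Of the 6 targets and co-repressors, 5 were lowest on KO 2, and Id1 was the exception. Id1, a direct BMP target that inhibits basic helix-loop-helix factors, read 1.21 (WT 2), 1.51 (WT 3), 2.29 (KO 2) and 1.40 (KO 3). KO 2 was the highest array here, with 1.08 at number 2 and -0.11 at number 3, and the second probe gave 1.03 and -0.33. Id2 and Id3, its relatives, ran the other way. Id2 read 2.63 and 3.30 in WT and 1.21 and 3.23 in KO, and all 3 of its probes were lower at number 2, by -1.42, -1.58 and -2.37. Id3 read 3.72 (WT 2), 4.61 (WT 3), 2.95 (KO 2) and 4.81 (KO 3). Tgif1, a co-repressor of Smad2 and Smad3, read -2.03 and -1.87 in WT, -3.75 on KO 2 and -1.80 on KO 3, so that KO 2 was alone. Skil and Ski, co-repressors that hold Smad complexes inactive, were lowest on KO 2 as well, with -0.62 and -0.24 at number 2 and 0.07 and 0.09 at number 3.

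**Figure D4:**
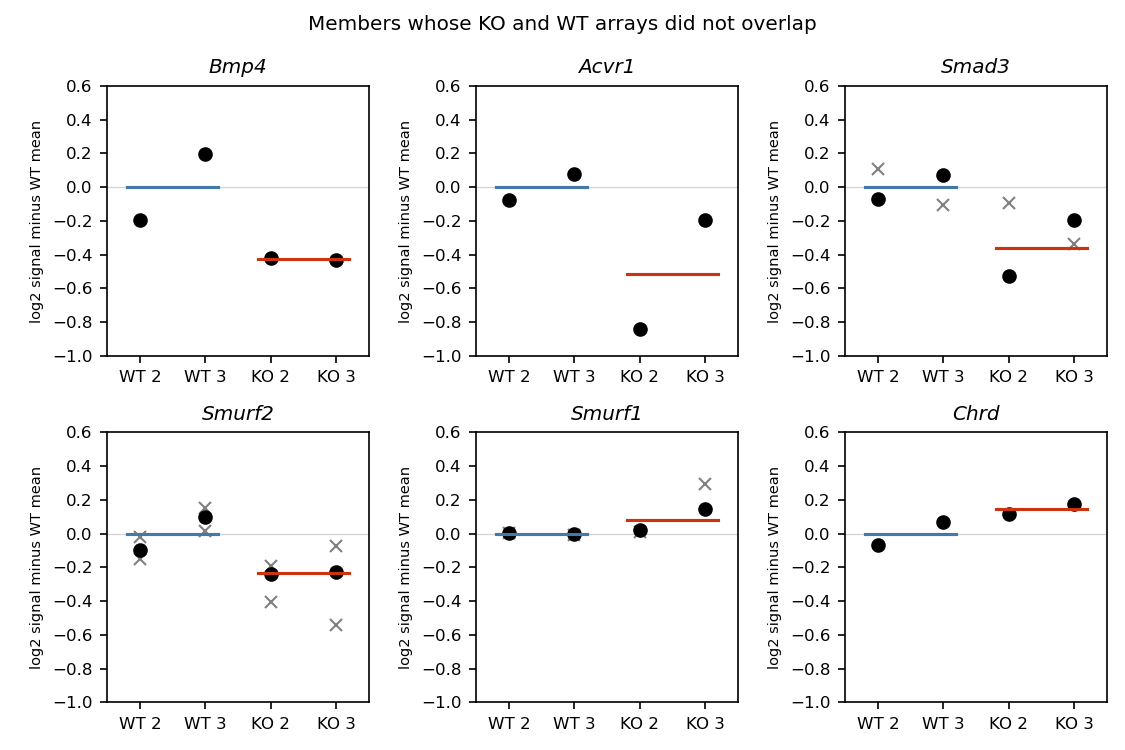
Log2 signal minus the WT mean of the probe (y axis, log2 units) on each array (x axis) for the 6 members whose KO and WT arrays did not overlap. Dots are the brightest probe, with lines at its group means, and crosses are the gene's other tested probes; Bmp4, Acvr1, Smad3 and Smurf2 lie lower in KO by 0.23 to 0.52 and Smurf1 and Chrd higher by 0.08 and 0.15.

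In all, 4 members had KO entirely below WT (Bmp4, Acvr1, Smad3 and Smurf2), or 9.30% against 8.88% of all tested genes, and 2 had KO entirely above WT (Smurf1 and Chrd), or 4.65% against 13.3%. The first share was near the background and the other below it. These 6 members were also separated, in the same direction, after a shift by the median, quantile normalization and normexp background correction, the alternatives that change every array value. These alternatives rescale the same arrays by which the 6 were picked, so they are not a separate check. Of the 25 other probes of members that were tested, 9, in 8 genes, had the opposite sign to the brightest probe. These genes were Acvr2a, Bmpr1a, Bmpr2, Inhbb, Ski, Smad1, Smad5 and Tgfbr2. Of the 6 separated members, Bmp4, Acvr1 and Chrd have a single probe, so no second probe bears on them. The groups overlapped on the second probe of Smad3 but not on the other probes of Smurf1 and Smurf2.

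The rest of the pathway, 71 further genes of which 70 had a probe and 57 were tested, gave 0 calls by limma, and 0 genes had an unadjusted p under 0.05. The KO mean was higher in 27 and lower in 30, with a median of -0.02. The only tested gene over 2-fold apart was Fbn2 (1.75% of the list, against 2.33% of all genes lower by this much), which encodes fibrillin-2, a microfibril protein that holds latent complexes in the matrix. Fbn2 read -0.08 (WT 2), 0.68 (WT 3), -2.26 (KO 2) and -0.60 (KO 3). Both KO arrays were below both WT arrays, with a difference of -1.73 (SE = 0.70, limma adjusted p = 0.9999). At both numbers Fbn2 was over 2-fold lower in KO (-2.19 and -1.28). Of the list, 1.75% were over 2-fold apart in the same direction at both numbers, against 0.673% of all tested genes. Gdf9, a ligand of the oocyte, Acvr1b, an activin receptor, and Tgif2, a co-repressor, were the other 3 genes lower on both KO arrays, or 7.02% in all against 8.88%, with differences of -0.49, -0.22 and -0.56. KO lay entirely above WT for 7 genes (12.3% against 13.3%). Among them were the ligands Bmp5 (0.50), Inhbe (0.47), Gdf11 (0.17) and Gdf5 (0.16), the antagonist Sost (0.39) and Strap (0.24). KO 2 was the lowest array for 25 of the 57 genes (43.9%), against 65.1% of the members. Both arrays numbered 2 lay below both numbered 3 for 42.1% of these genes, against 60.5% of the members. Some other shares were near those of the members. On KO 2, 13 genes (22.8%) were over 2-fold lower than on WT 2, against 23.3% of the members. KO 3 was the highest array for 25 genes (43.9%), against 46.5% of the members.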

How the data were processed

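Left ventricular RNA of 2 KO and 2 WT samples was hybridised in 1 colour (Cy3) to Agilent Whole Mouse Genome arrays, all on 1 slide, with WT at positions 1 and 2 and KO at 3 and 4, so position and genotype cannot be told apart. The authors scanned them with Agilent Feature Extraction (version 10.7 in the submitters' notes; 10.7.3.1 per the file headers, which place probes on mm9) and deposited processed intensity values, corrected for background, and a table of log2 values made per the methods with GeneSpring. That table's normalization is not stated; each of its columns had a median of 6.78, it is not centred on genes, and on each array between 99.90% and 99.96% of its values matched the quantile-normalized log2 intensity to within 0.01, so scale and direction are those of the scanner.

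Outlier spots (92 to 116 per array) were left out, no spot was saturated, and spots of a probe were averaged. Log2 values were shifted by each array's 75th percentile of intensity, which ran from 607.6 (KO 2) to 976.1 (WT 3). The number of arrays limits the precision. A probe was tested if well above background on both arrays of a group (28304 probes; 12864 too dim, 6 without a value on an array). The genotypes were fitted with lmFit and eBayes of limma 3.58.1 under R 4.3.3, and p-values were adjusted over all tested probes (Benjamini-Hochberg). The fit was also run on simulated data, with the same spread for every probe and no shared shift of any array. That run therefore does not show the power of the fit on these arrays. Of 41174 probes, 31437 were named by a RefSeq symbol, 2200 by an older symbol or accession and 7537 by none.

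The members and lists were chosen with earlier results of these data known. Under the naming rule, array values are printed for members over 2-fold apart between means or at both numbers, members whose groups did not overlap, and Tgfb1, Tgfb2, Tgfb3, Tgfbr1, Tgfbr2, Smad2, Smad3, Smad7 and Id1; further members, with or without all their array values, were chosen after their values were seen, to describe their role, and of the other pathway genes up to 10 by size. Alternatives were normexp (offset 50), quantile normalization, a shift by the median, the authors' values, no filter, a stricter filter, the mean of all probes, the replicate block, trend and robust eBayes, array weights, the methods' t-test and leaving out each array. With 1 slide and 1 scan, neither could serve as a block.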

Additional observations from a re-analysis of the deposited data

Results flagged for a closer look

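Xist, which no comparison of the genotypes uses, was bright before scaling, with a log2 signal that reached 14.13 on WT 2 and 13.24 on KO 2, although both samples are labelled male, and was not above background on WT 3 and KO 3. It is listed because it is a signal outside the main measurement. Along the same numbers, both arrays numbered 2 lay below both numbered 3 for 26 members (60.5%, against 31.5% of all tested genes). They lay above them for 4 (9.30%, against 31.6%).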

How the results depend on the processing

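In every setting run, the methods' t-test included, 0 members and 0 other pathway genes were called after adjustment, and in every setting with all 4 arrays 0 members had an unadjusted p under 0.05. With an array left out, 1 group is a single array assumed to vary like the other group, so p rests on the spread of that other group alone. On that footing 16 members (37.2%) had an unadjusted p under 0.05 without KO 3, against 26.8% of all tested genes, with a lowest adjusted p of 0.13, and 1 member (2.33%, Inhba) without KO 2, against 6.26%. Each alternative was followed for the 15 members that the naming rule covers. Their direction was kept in 104 of 105 values from other scalings, filters and probe rules. The exception was Smad7, at 0.016 after a shift by the median. Many of these values could not have differed. A change of filter leaves array values as they are, and the mean of all probes does so for genes with a single probe. The authors' values nearly equal those after quantile normalization. Members over 2-fold lower numbered 2 in the authors' values and after quantile normalization (Ltbp2 and Fst) and 0 with normexp. Members with both KO arrays below both WT arrays numbered 7 in both of these (16.3%, against 9.30% of all tested genes with quantile normalization and 9.28% in the authors' values), and those above numbered 5 with normexp (11.6%, against 22.4%); the cause was not tested.

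Leaving out an array moved more values. Members over 2-fold lower then ran from 0 (without WT 3; 2.74% of all tested genes) to 12 (without KO 3; 10.85%), with 4 without WT 2 (3.59%) and 1 without KO 2 (3.80%), and those over 2-fold higher from 0 (without WT 3; 1.08%) to 2 (without KO 2; 2.72%). The median member difference ran from -0.48 (without KO 3) to 0.17 (without KO 2). Ranges that crossed 0 were -0.49 to 0.43 for Tgfb1, -0.94 to 0.61 for Tgfb2, -1.84 to 0.12 for Tgfb3, -1.40 to 0.38 for Tgfbr1, -0.81 to 0.063 for Tgfbr2, -0.15 to 0.26 for Smad2, -0.26 to 0.24 for Smad7 and -3.20 to 0.86 for Fst; of the 10 values of these 15 members that changed sign, 7 came without KO 2. The other 7 of the 15 kept their sign, among them Smad3 (-0.53 to -0.20), Bmp4 (-0.62 to -0.23) and Acvr1 (-0.84 to -0.19). For these and for Smurf1, Smurf2 and Chrd the sign could not have changed. They were followed because their groups did not overlap, which fixes the sign whichever array is left out. Id1, whose groups overlapped, ran from 0.038 to 0.93.

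Samples of the same number deviated together from their group means (r = 0.57 across probes), but with 2 pairs and no label tying them the numbers are only shared. With the array number as a replicate block, 0 members and 0 other pathway genes were called, and 328 of the 15005 tested genes had an unadjusted p under 0.05, against 211 without it. The slide and scan block could not be fitted, and the number of arrays limits every value.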
